A study of Mus musculus with 9 samples.

Results

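Fbln2, Dmp1, Adamts8, Wisp1, Apln, Ephb6, Bnc1 and Ube2ql1 are 8 genes whose values were lower in both lung metastases than in both primary tumours of a mouse breast cancer (BC) model. They are 8 of the 23799 genes in the deposited expression table, and were picked by name from 3463 of 12832 tested genes (27%) that met the same condition. A gene was tested if it reached 1 RPKM (reads per kilobase of gene, scaled to the reads of the library) in at least 2 libraries. Because the BC values chose these genes, their BC differences are given below as a description, without a test. RNA sequencing covered 9 libraries of fluorescently sorted tumour cells. The BC lung metastasis group (numbers 4 and 6) and the BC primary group (numbers 1 and 5) held GFP-sorted cells at 28 days. They derive from 4T1-eGFP, mouse mammary carcinoma cells that carry GFP, so all 4 BC libraries go back to 1 cell line, and no lung number matches a primary number. YFP-sorted cells of pancreatic ductal adenocarcinoma (PDAC) made up the other 5 libraries. PDAC liver metastasis 1, PDAC lung metastasis 1 and PDAC primary 1 are labelled with SIRT6F/F beside p48-Cre, p53F/+ and the reporter ROSA-LSL-YFP, at 25.67 weeks. PDAC liver metastasis 5 and PDAC primary 5 have the same labels without SIRT6F/F, at 28.95 weeks. All 5 PDAC libraries thus carry p48-Cre, a driver active in the developing pancreas, with the p53 and YFP reporter alleles, and the age and SIRT6 label go with the number.

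The products of 5 of these genes act outside the cell. Fibulin 2, the Fbln2 product, is a glycoprotein of elastic fibres and basement membranes. Dmp1 encodes an acidic phosphoprotein of bone and dentin matrix, Adamts8 a secreted metalloproteinase with thrombospondin motifs, and Wisp1 (now also called Ccn4) a matricellular CCN protein that Wnt signalling induces. Apln encodes apelin, a peptide ligand of the receptor Aplnr with a role in blood vessel growth. Ephb6 encodes an Eph receptor that binds ephrins and lacks kinase activity. Bnc1 encodes basonuclin 1, a zinc finger protein of basal keratinocytes and germ cells, and Ube2ql1 a protein of the ubiquitin-conjugating E2 enzyme type. In carcinomas, matrix proteins and Eph receptors are known as parts of the contact between tumour cells and their surroundings.

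Promoters, defined as 250 bases before to 50 after the annotated start, were available for 6 of the 8 genes, from RefSeq on GRCm38.p6. These sequences are from the reference strain and are shown to compare the genes' promoter composition, which the choice of genes did not use. Those of Fbln2, Dmp1 and Bnc1 cover the range. Capitals mark ACGTG on either strand, the core letters of a hypoxia response element, which overlaps itself where it forms CACGTG. The promoter of Fbln2 lies at chr6:91212514-91212813 on the plus strand, that of Dmp1 (its first annotated start) at chr5:104197325-104197624 on the plus strand and that of Bnc1 at chr7:81992250-81992549 on the minus strand.
Fbln2: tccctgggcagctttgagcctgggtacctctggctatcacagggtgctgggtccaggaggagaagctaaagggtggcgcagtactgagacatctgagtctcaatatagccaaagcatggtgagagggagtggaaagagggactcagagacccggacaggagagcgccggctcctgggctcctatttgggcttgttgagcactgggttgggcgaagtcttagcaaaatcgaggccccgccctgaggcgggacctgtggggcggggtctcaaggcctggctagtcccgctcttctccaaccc
Dmp1: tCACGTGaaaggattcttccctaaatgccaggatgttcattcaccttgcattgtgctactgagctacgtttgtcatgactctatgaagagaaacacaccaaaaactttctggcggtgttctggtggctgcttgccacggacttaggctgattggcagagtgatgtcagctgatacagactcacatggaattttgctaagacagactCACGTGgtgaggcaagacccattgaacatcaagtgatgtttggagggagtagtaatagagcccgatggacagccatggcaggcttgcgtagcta
Bnc1: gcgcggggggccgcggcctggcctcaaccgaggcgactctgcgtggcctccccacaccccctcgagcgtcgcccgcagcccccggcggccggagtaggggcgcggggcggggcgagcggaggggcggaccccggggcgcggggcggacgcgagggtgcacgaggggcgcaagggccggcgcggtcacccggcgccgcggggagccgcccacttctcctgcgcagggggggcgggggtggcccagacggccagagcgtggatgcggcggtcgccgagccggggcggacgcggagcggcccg
The GC content of these promoters was 60.3% for Fbln2, 47.7% for Dmp1 and 83.3% for Bnc1, against a median of 52.7% over 32851 promoters. CG dinucleotides numbered 10, 7 and 50 in the same order. The other promoters had a GC content of 64.0% (Apln), 76.3% (Ephb6), 70.7% (Ube2ql1) and 47.3% (the second start of Dmp1). Of the 6 genes, only Dmp1 thus had promoters with a GC content below the median, and the others lay above it. ACGTG was found in the first Dmp1 promoter, in 2 stretches, and in the Ephb6 promoter, in 1, and 19.6% of all promoters hold it on either strand. Neither TGANTCA, the letters bound by AP-1 factors (7.81% of all promoters), nor CATTCC, those bound by TEAD factors (14.7%), was found on either strand in any promoter of the 6 genes.

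The 9 libraries differed in depth and in how many genes they listed above 0. The estimated reads on genes ranged from 21300000 to 128000000, and the estimated totals that scale the values from 12800000 to 131100000. In most libraries the first was above the second, as with 65200000 against 36400000 in PDAC liver metastasis 5, so both are approximate. BC lung metastasis 6 listed 10938 genes, against 18665 in BC lung metastasis 4 and 18685 and 20478 in BC primaries 1 and 5. Of 9586 tested genes whose lower BC primary was at 1 RPKM or more, 2025 were listed at 0 in BC lung metastasis 6 (21.1%) and 1 in BC lung metastasis 4 (0.0104%). A low value in library 6 is therefore common among all genes, and each gene below is read in library 4 first. A drop is defined here as a value at least 1 lower than the lower primary on the log2(RPKM + 1) scale.

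Fbln2 had the highest level of the 8 genes and was low in both lung metastases alike. It had 6.16 RPKM in BC lung metastasis 4 and 4.15 RPKM in metastasis 6, against 95.7 and 66.3 RPKM in BC primaries 1 and 5. The lower primary was 10.8 times the higher metastasis. By the annotated exonic length of 6370 bases, about 3014 and 1233 reads lay behind the metastasis values, so the gene was clearly detected in library 6 as well. The difference from the lower primary on the log2(RPKM + 1) scale was -3.23 for library 4 and -3.71 for library 6. In library 4 this was the largest decrease of all 9586 genes.

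The other 3 genes of the matrix were at lower levels and were near or at 0 in library 6. Dmp1 had 8.47 RPKM in metastasis 4 and 0.0465 RPKM in metastasis 6, against 32.2 and 51.5 RPKM in the primaries. These are 1798 and 6 reads against 7471 and 18643 reads. Library 4 kept 26.3% of the lower primary and library 6 kept 0.144%, so most of the Dmp1 difference, -3.73 between group means on the log2(RPKM + 1) scale, came from library 6. Adamts8 had 0.630 RPKM in metastasis 4 and was listed at 0 in metastasis 6, against 10.0 and 6.52 RPKM in the primaries. Its 223 reads in library 4 stand against 3874 and 3941 reads in the primaries, and library 4 alone put it at 9.66% of the lower primary. Wisp1 had 1.06 RPKM in metastasis 4 and was listed at 0 in metastasis 6, against 4.72 and 7.83 RPKM in the primaries. Library 4 held 22.4% of the lower primary. For all 3 genes the metastases lay below both primaries without overlap, which is the condition that chose them.

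Apln, the ligand gene, and Ephb6, the receptor gene, had like values in the BC libraries. Apln had 2.04 RPKM in metastasis 4 and was listed at 0 in metastasis 6, against 7.09 and 10.0 RPKM in the primaries, or 494 and 0 reads against 1873 and 4146. Ephb6 was at 2.30 RPKM and listed at 0, against 13.2 and 9.52 RPKM, or 666 and 0 reads against 4166 and 4705. Library 4 kept 28.8% of the lower primary for Apln and 24.2% for Ephb6, the highest and the third highest share of the 8 genes. In library 6 a count of 3 reads would have been 0.0204 RPKM for Apln and 0.0170 RPKM for Ephb6. These limits cover counting error only. Of 20 genes that cells generally use, 19 were above 0 in library 6 and 3 had a drop there. Of these 3, the transferrin receptor gene Tfrc was at 0.00346 RPKM and the glutamate dehydrogenase gene Glud1 was listed at 0.

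Bnc1 was close to 0 in both metastases, and Ube2ql1 was low in one and listed at 0 in the other. Bnc1 had 0.104 RPKM in metastasis 4 and 0.0460 RPKM in metastasis 6, against 3.89 and 4.47 RPKM in the primaries. About 37 and 10 reads were left of 1514 and 2722, and library 4 held 2.67% of the lower primary, the smallest share there among the 8 genes. Because its level was low to begin with, its difference on the log2(RPKM + 1) scale was only -2.15 for library 4 and -2.22 for library 6. Ube2ql1 was at 0.583 RPKM and listed at 0, against 10.0 and 3.77 RPKM. Its primaries differed 2.66-fold, the widest spread among the 8 genes, where the others differed between 1.15-fold (Bnc1) and 1.66-fold (Wisp1). Between Bnc1 and a pseudogene on the other strand, 4833418N17Rik, 98 exonic bases are shared, and between Adamts8 and the antisense gene Gm29724 489 bases. The library kit does not mark strand, so reads there cannot be told apart. The pseudogene was at or under 0.291 RPKM in every library, and Gm29724 was not analysed here.

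**Figure D1:**
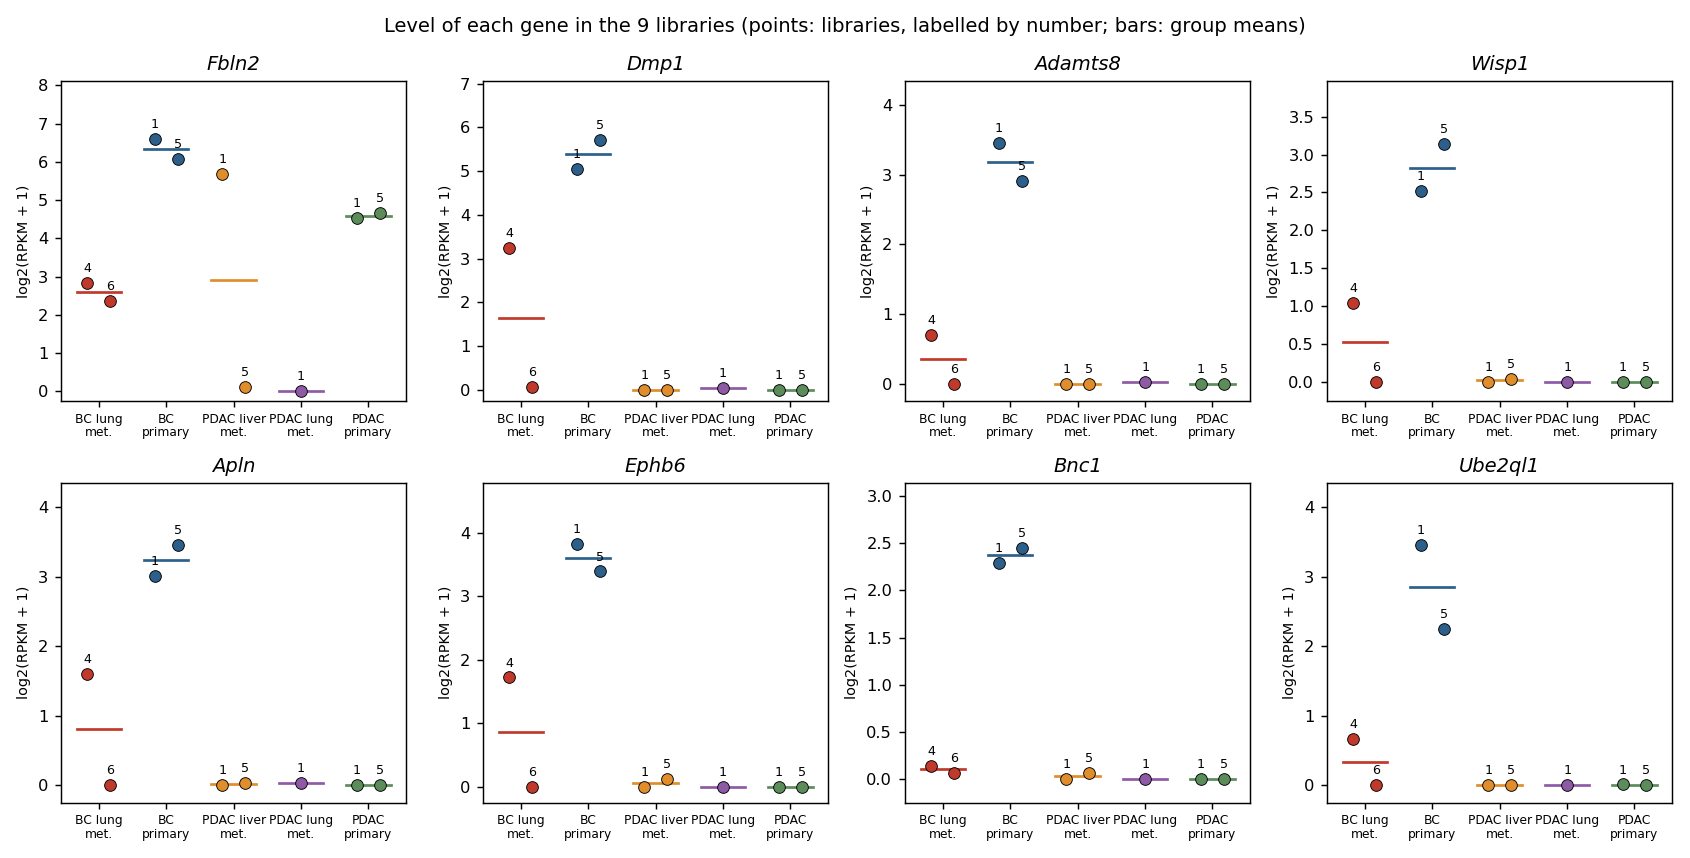
Level of each of the 8 genes on the log2(RPKM + 1) scale in the 9 libraries, with a point per library labelled by its number and a bar at the mean of each group on that scale. In all 8 panels both BC lung metastases lie below both BC primaries, and in the panels other than Fbln2 every PDAC library lies near 0, at 0.0874 RPKM or less.

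Across the BC primaries the 8 levels spanned from 81.0 ± 20.8 RPKM for Fbln2 and 41.8 ± 13.6 RPKM for Dmp1 to 4.18 ± 0.414 RPKM for Bnc1 (mean ± SD, n = 2 libraries). The libraries of Fbln2 and Dmp1 did not overlap. Ephb6 (11.3 ± 2.58 RPKM), Apln (8.57 ± 2.09 RPKM), Adamts8 (8.27 ± 2.47 RPKM), Ube2ql1 (6.91 ± 4.44 RPKM) and Wisp1 (6.27 ± 2.20 RPKM) followed, and each of these overlapped with its neighbours in this order. Fbln2, Adamts8, Ephb6 and Ube2ql1 were higher in primary 1, and Dmp1, Wisp1, Apln and Bnc1 in primary 5. No primary library was thus the higher one for the whole set. Nothing in the labels says that the libraries of a BC group came from separate animals, so this spread may be partly technical.

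All 8 genes had a drop in BC lung metastasis 4, and none had one in library 6 alone. Over the 9586 genes with a lower primary of 1 RPKM or more, 199 had a drop in library 4 (2.08%), 4317 in library 6 (45%) and 171 in both (1.78%). Another 4146 genes (43.3%) had a drop in library 6 and not in library 4, and 28 (0.292%) the reverse. All 8 genes were lower by 2 or more in library 6, as were 2210 genes there (23.1%). Under 0.1 RPKM were 7 of the 8 genes in library 6, all but Fbln2, and 0 of the 8 in library 4, beside 2924 (30.5%) and 7 (0.073%) of the 9586 genes. The median difference from the lower primary was -1.74 over the 8 genes and 0.18 over the 9586 in library 4, and -2.96 over the 8 and -0.63 over the 9586 in library 6. Since BC values chose the 8 genes, these shares are set beside them as a background and nothing is read from the contrast. By size of the decrease in library 4, Fbln2, Adamts8 and Bnc1 ranked 1, 2 and 3 of 9586, Dmp1 13, Ephb6 22, Ube2ql1 30, Wisp1 37 and Apln 47. A decrease of 2 or more was found for 6 genes in library 4 (0.0626%). Beside Fbln2, Adamts8 and Bnc1 these were Folr2, a folate receptor gene of macrophages (0.0862 RPKM and listed at 0 in metastases 4 and 6, against 3.63 and 5.68 RPKM in primaries), Tnfaip3, an NF-kB inhibitor gene (1.76 and 6.48 against 10.4 and 24.7 RPKM), and Tmeff1 (1.12 RPKM and listed at 0, against 7.76 and 10.4 RPKM), which were singled out after their values were seen.

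**Figure D2:**
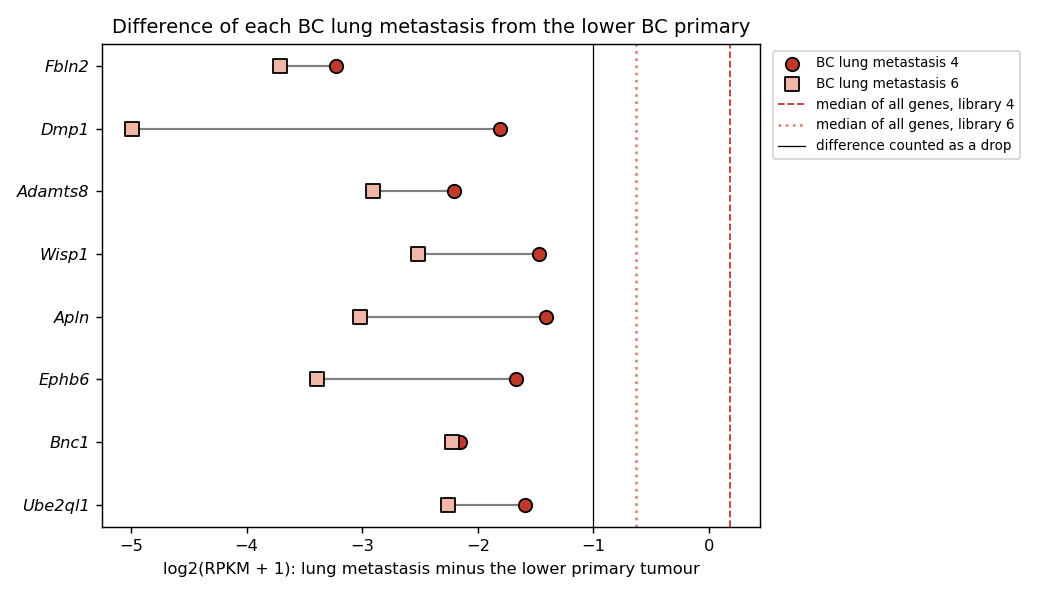
Difference of each BC lung metastasis from the lower of the BC primaries, on the log2(RPKM + 1) scale, for the 8 genes (circles, library 4; squares, library 6). Dashed and dotted lines mark the medians of 9586 genes (0.18 for library 4 and -0.63 for library 6). The libraries are close for Bnc1 and Fbln2 and farthest apart for Dmp1 (-1.81 in library 4 and -4.99 in library 6).

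The 8 genes differed in how library 6 compared with library 4. Library 6 was lower than library 4 by 0.07 for Bnc1 and 0.48 for Fbln2 on the log2(RPKM + 1) scale. The gap was 0.67 for Ube2ql1, 0.70 for Adamts8 and 1.05 to 3.18 for Wisp1, Apln, Ephb6 and Dmp1. Adamts8, Wisp1, Apln, Ephb6 and Ube2ql1 were listed at 0 in library 6, so their gap only restates their level in library 4. Bnc1 was close to 0 in both libraries (0.104 and 0.0460 RPKM), where this scale shows little of a difference. With quantile scaling the differences from the lower primary in libraries 4 and 6 were -4.23 and -3.8 for Fbln2, but -1.42 and -0.22 for Bnc1. Without that scaling the group difference is carried by both libraries for Fbln2 and Bnc1, and to a large extent by library 6 for Dmp1. Without library 6 the Dmp1 difference was -2.14, against -3.73 with it, and that of Fbln2 was -3.49, against -3.73 with it. Without library 6 the difference of Apln was -1.64, that of Wisp1 -1.79 and that of Ephb6 -1.89, and without library 4 they were -3.24, -2.83 and -3.61. No difference turned its sign, and none could, since the condition that chose the genes fixes it when a library is left out. The median difference over all tested genes between the BC groups was -0.29, and the smallest of the 8, that of Bnc1, was -2.27.

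How often a gene was listed at 0 in library 6 varied with its level in the primaries. Among 2946 genes whose lower primary was between 3 and 10 RPKM, the range that holds Adamts8, Wisp1, Apln, Ephb6, Bnc1 and Ube2ql1, 53.9% had a drop in library 6 and 26.3% were listed at 0 there. In library 4, 2.58% of them had a drop and 0% were listed at 0. Among 1362 genes between 30 and 100 RPKM, the range of Fbln2 and Dmp1, 22.7% had a drop in library 6 and 0.734% were listed at 0, and 2.06% had a drop in library 4. Of the 6 genes in the lower range 5 were listed at 0 in library 6.

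**Figure D3:**
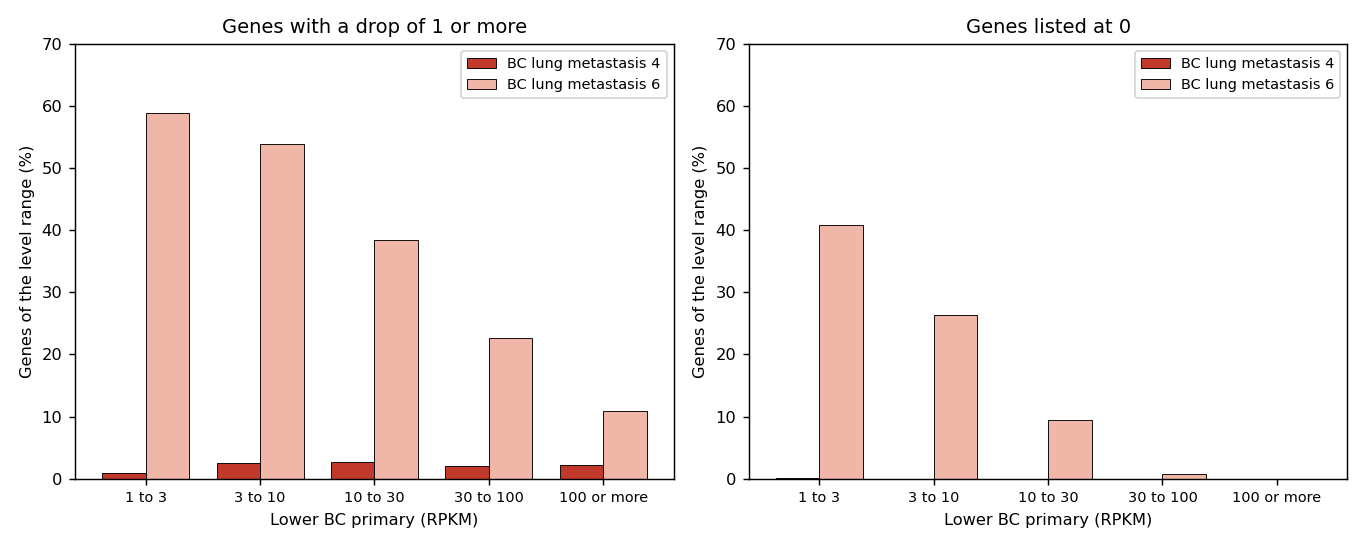
Share of tested genes with a drop of 1 or more (left) and share listed at 0 (right) in BC lung metastases 4 and 6, by the RPKM of the lower BC primary. In library 6 the share with a drop goes from 58.9% at 1 to 3 RPKM down to 10.9% at 100 RPKM or more, while in library 4 it stays between 0.885% and 2.69%.

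Ranked by the group difference on the log2(RPKM + 1) scale, the 8 genes were not the 8 largest of the 3463 genes that met the condition. Fbln2 and Dmp1 ranked 2 and 3, behind Atf3, a stress-induced transcription factor gene (110.7 and 0.604 RPKM in metastases 4 and 6, against 209 and 157 RPKM in primaries). Adamts8 ranked 58, Ephb6 77, Ube2ql1 147, Apln 193, Wisp1 278 and Bnc1 307. Next to Bnc1 stood Ipo9 at 306 (5.27 and 0.00520 against 7.88 and 15.5 RPKM) and Wdr3 at 308 (3.05 and 0.00410 against 6.37 and 11.7 RPKM). Both were near 0 in library 6 only. There were 299 genes outside the set with a rank ahead of Bnc1. By limma, a linear model with moderated variances fitted to log2(RPKM + 1) of all 9 libraries, 0 of 12832 genes (0%) were called between the BC groups at a Benjamini-Hochberg adjusted p under 0.05, with 265 at an unadjusted p under 0.05.

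Other genes of the same families were read from lists picked for function. A drop in library 4 was found for 2.08% of all 9586 genes, so a count of 0 in a short list is near that share and sets no list apart from the 8 genes. Among fibulins and elastic fibre genes, 5 genes beside Fbln2 had a lower primary of 1 RPKM or more. In library 4, 1 of them had a drop, Ltbp4, which encodes a binding protein of latent TGF-beta (3.39 and 0.487 RPKM in metastases 4 and 6, against 14.9 and 33.2 RPKM in primaries). Efemp2, which encodes fibulin 4, overlapped, with 108 and 90.9 RPKM against 124 and 63.9 RPKM. Ltbp1, Ltbp2 and Ltbp3 had a drop in library 6 and not in library 4. In the mineralised matrix list, Ank, which encodes a pyrophosphate transporter, had 52.1 and 47.9 RPKM against 160 and 125 RPKM, a drop in both. Spp1, which encodes osteopontin of the same family as Dmp1, was at 2530 and 3500 RPKM against 6920 and 3280 RPKM, and Ibsp, the bone sialoprotein gene, at 29.5 RPKM and listed at 0 against 27.3 and 7.71 RPKM. Neither showed the pattern of Dmp1.

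Of 4 other ADAMTS genes with a lower primary of 1 RPKM or more, 0 had a drop in library 4 and 3 in library 6. Adamts4 came closest, with 1.76 and 0.142 RPKM in the metastases against 4.37 and 4.47 RPKM in the primaries. Of 4 other CCN genes 0 had a drop in library 4. Nov was lower in both metastases (2.10 RPKM in metastasis 4 and listed at 0 in metastasis 6, against 3.43 and 2.85 RPKM in primaries), and the other 3 overlapped with the primaries. Cyr61 was at 312 and 451 RPKM against 478 and 205 RPKM, Wisp2 at 46.2 and 11.1 RPKM against 20.1 and 35.3 RPKM and Ctgf at 4.09 and 11.3 RPKM against 26.2 and 8.52 RPKM. Among 5 other Wnt target genes, 1 had a drop in library 4, Apcdd1, an inhibitor of Wnt signalling (1.93 RPKM and listed at 0 against 6.62 and 8.40 RPKM). Notum, another feedback inhibitor of the pathway, was at 27.5 and 16.1 RPKM against 13.9 and 5.85 RPKM, higher in both metastases.

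Of 10 other Eph receptor genes in the table, 3 were tested, each with a lower primary of 1 RPKM or more. A drop was found for 2 of these 3 in library 4 and for 3 in library 6. Epha1 was at 13.8 and 1.55 RPKM in metastases 4 and 6 against 32.0 and 38.3 RPKM in primaries, and Epha2 at 3.27 and 2.90 RPKM against 8.38 and 15.8 RPKM. Ephb4 was at 7.45 and 0.549 RPKM against 10.4 and 22.8 RPKM, with a difference from the lower primary of -0.43 in library 4. Ephb2, which was not tested, lay between its primaries in metastasis 4, with 0.857 RPKM there and 0 in metastasis 6, against 0.751 and 1.76 RPKM. Of 5 ephrin genes, which encode the ligands, 1 had a drop in library 4. This was Efnb1 (1.14 and 0.490 RPKM against 7.75 and 6.56 RPKM). Efna1 was at 72.9 and 64.6 RPKM against 74.4 and 50.5 RPKM and Efna4 at 9.91 and 24.7 RPKM against 18.5 and 14.8 RPKM, and both overlapped. The median BC difference was -2.18 over 3 Eph receptors beside Ephb6 and -0.94 over 5 ephrins, against -0.29 over all tested genes.

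Apln is a known target of hypoxia signalling. Of 18 other such genes, 0 had a drop in library 4, near the 2.08% over all genes, and 11 had one in library 6. In both metastases 4 of the 18 were lower than in both primaries, with differences from the lower primary in library 4 of -0.90 for the glucose transporter gene Slc2a1, -0.92 for Pdk1, -0.86 for Car12 and -0.46 for Egln3. Slc2a1 had 28.8 and 12.9 RPKM in metastases 4 and 6, against 72.9 and 54.5 RPKM in primaries, and Ankrd37 was higher in both metastases. Car9, a carbonic anhydrase gene induced by low oxygen, was at 122 and 0.409 RPKM in metastases 4 and 6, against 124 and 79.8 RPKM in primaries. Vegfa, the gene of the main vascular growth factor, was at 25.4 and 6.52 RPKM against 27.2 and 18.3 RPKM. Among 8 other angiogenic genes 0 had a drop in library 4, and Vegfc was higher in both metastases, at 19.9 and 50.3 RPKM against 12.4 and 11.4 RPKM. Of 7 basal epithelial genes beside Bnc1, 2 had a drop in library 4. Among them was Lamb3, a laminin chain gene of the epithelial basement membrane, with 1.58 RPKM in metastasis 4 and listed at 0 in metastasis 6, against 9.48 and 5.36 RPKM in primaries. The keratin gene Krt14 was at 51.4 and 0.0122 RPKM against 53.5 and 28.8 RPKM, near 0 in library 6 and not in library 4. Of 20 other E2 enzyme genes, 0 had a drop in library 4 and 4 in library 6, and Ube2q1, the gene of a related enzyme, was at 24.0 and 18.0 RPKM against 23.2 and 31.4 RPKM.

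**Figure D4:**
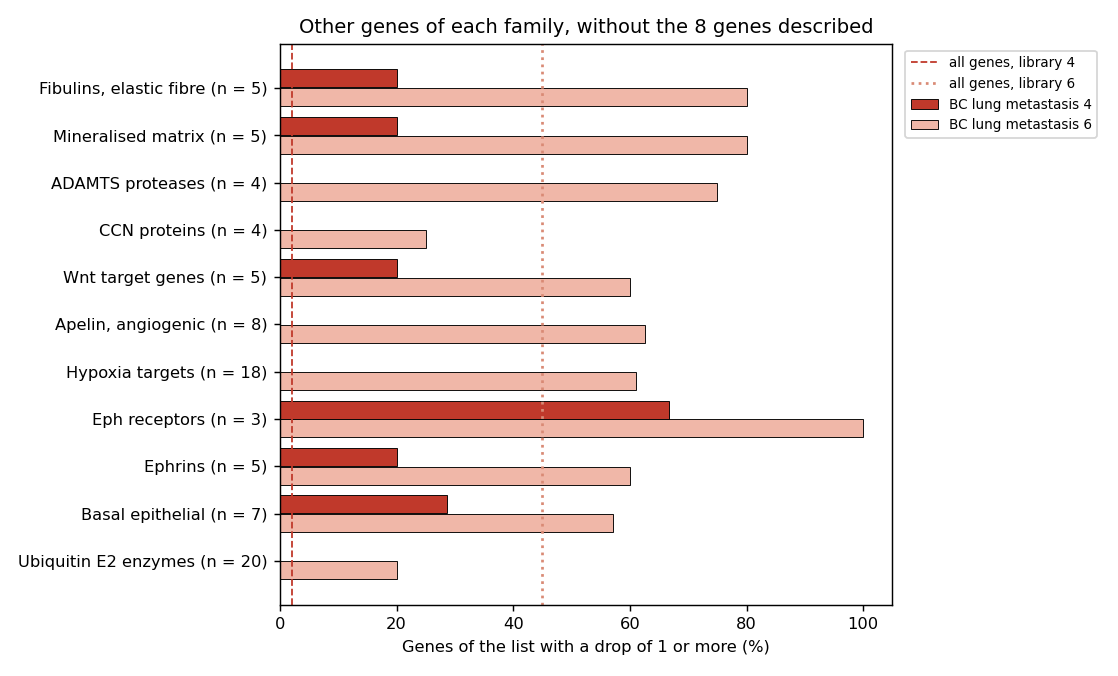
Share of genes with a drop of 1 or more in BC lung metastases 4 and 6, for each list without the 8 genes, among genes with a lower BC primary of 1 RPKM or more (n beside each name). Lines mark the shares over all 9586 genes (2.08% in library 4 and 45% in library 6). In library 4 the ADAMTS, CCN, angiogenic, hypoxia and E2 enzyme lists have 0 genes with a drop, and Eph receptors have 2 of 3.

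Markers of other cell types were present in the sorted BC libraries. The summed level of 15 fibroblast genes was 266 and 411 RPKM in metastases 4 and 6, against 329 and 568 RPKM in primaries 1 and 5, with 14 and 11 of the 15 above 0 against 15 and 15. Of the 11 tested, 4 were lower in both metastases than in both primaries, namely Col1a1, Col3a1, Col5a1 and Fn1, and 2 were higher in both, Dcn and Lum. Col1a1, a collagen chain gene, had a drop in library 4 (2.91 and 0.548 RPKM against 7.06 and 31.7 RPKM), and Fn1, the fibronectin gene, had 41.9 and 17.8 RPKM against 75 and 198 RPKM. Dcn, the decorin gene, was higher in both metastases (17.9 and 47.1 RPKM against 5.67 and 8.76 RPKM). Pdpn, Pdgfrb, Thy1 and Fap were listed at 0 in library 6, and Thy1 in library 4. The sums of 12 endothelial genes were 31.7 and 33.5 RPKM against 32.3 and 39.3 RPKM, with 11 and 4 of 12 above 0 against 12 and 12, and Pecam1, Tek and Tie1 listed at 0 in library 6. Those of 11 macrophage genes were 674 and 425 RPKM against 476 and 692 RPKM, with 11 and 9 above 0 against 11 and 11. Csf1r and Mrc1 were listed at 0 in library 6. Lyz2 made up a large share of the macrophage sums (261 and 200 RPKM against 203 and 274 RPKM). Of the 11 genes, 5 were lower in both metastases, C1qa, C1qb, C1qc, Csf1r and Mrc1, and 2 were higher in both, Fcer1g and Cd68. C1qa, a complement chain gene, had a drop in library 4 (24.5 and 18.2 RPKM against 50.3 and 97.2 RPKM), and C1qc had 22.8 and 14.1 RPKM against 45.3 and 69.8 RPKM. Over all 12832 tested genes, 27% were lower in both metastases and 15.8% were higher in both. The fibroblast count of 4 of 11 is near the share of 27%. The macrophage count of 5 of 11 lies further above it, and neither count was tested. The sums of both lists overlapped between the groups.

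Several other lists had higher sums in both BC metastases, each carried by some of its genes. The 12 neutrophil genes summed to 2770 and 1720 RPKM against 103 and 145 RPKM, with 12 and 10 above 0 against 12 and 12. Of these, 5 were higher in both metastases, S100a8 and S100a9 making up most of the sum, while Mmp9 was lower in both, and Mpo and Elane were listed at 0 in library 6. The 10 lung epithelial genes summed to 36.9 and 43.4 RPKM against 1.97 and 1.74 RPKM, with 10 and 6 above 0 against 7 and 7, and 4 were higher in both. The pericyte and muscle list summed to 19.6 and 223 RPKM against 7.79 and 13.9 RPKM, with 8 and 3 of 8 above 0 against 7 and 8, and Tagln (104 RPKM) and Acta2 (115 RPKM) made up most of it in library 6. The erythroid list summed to 88.7 and 568 RPKM against 21.9 and 23.1 RPKM, mostly globin genes, with 5 and 4 of 6 above 0 against 5 and 5. The lymphocyte list summed to 67.2 and 45.2 RPKM against 8.78 and 14.0 RPKM, mostly Igkc, with 11 and 4 of 12 above 0 against 12 and 12. The 13 epithelial genes of the mammary list summed to 4250 and 5920 RPKM against 5700 and 3020 RPKM, mostly Krt8 and Krt18, with 13 and 10 above 0 against 13 and 13. Of 11 tested, 0 had a drop in library 4 and 4 in library 6, and Cdh1 and Erbb2 were listed at 0 in library 6. Lower in both metastases were 2, Cldn4 and Erbb2, and higher in both were 2, Krt19 and Cldn7. Krt18 was at 2550 and 4070 RPKM against 3390 and 1620 RPKM, and the hormone receptor gene Esr1 was at or under 0.848 RPKM in the BC libraries. Of 20 genes that cells generally use, 0 had a drop in library 4 and 3 in library 6. The part of other cell types in the 8 differences was not tested, and in sorted bulk samples fewer cells of a type and less RNA per cell cannot be told apart.

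In the PDAC model, which the condition on BC values did not use, 7 of the 8 genes were close to 0 in all libraries. The highest value of Dmp1, Adamts8, Wisp1, Apln, Ephb6, Bnc1 or Ube2ql1 in any PDAC library was 0.0874 RPKM, that of Ephb6 in PDAC liver metastasis 5, or 12 reads. Of the 9586 genes with a lower BC primary of 1 RPKM or more, 163 (1.7%) were under 0.1 RPKM in all 5 PDAC libraries. The 8 genes were picked by name with earlier results of these data known, so nothing is read from this contrast. Dmp1 had 1 read in the PDAC lung metastasis and was listed at 0 in the other PDAC libraries, and Adamts8 had the same pattern. Wisp1 had 6 reads in PDAC liver metastasis 5 and about 1 in PDAC primary 1. Bnc1 had 8 reads in PDAC liver metastasis 5. No difference between PDAC groups is read for these genes, since at most 1 read of each was found in a PDAC primary.

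Fbln2 was expressed in PDAC as well and differed between libraries of 1 group. It was at 50.7 and 0.0889 RPKM in PDAC liver metastases 1 and 5, listed at 0 in the PDAC lung metastasis, and at 22.2 and 24.2 RPKM in PDAC primaries 1 and 5. The liver metastases lay on both sides of the primaries. They also differ in age and SIRT6 label, which cannot be told apart here from spread within the group. The log2 difference of liver metastasis from primary was -1.69 ± 1.56 (SE, n = 2 against 2; limma adjusted p = 0.905), and without liver metastasis 5 it was 1.10. For lung metastasis the difference was -4.59 ± 1.92 (SE, n = 1 against 2), with the lone library assumed to vary like the other groups. The median difference over all tested genes in that comparison was -0.50. Limma called 0 of the 8 genes in either comparison, where it called 1 of 12832 genes for liver (0.00779%) and 75 for lung (0.584%), 53 of them lower (0.413%). With the number as a block, pairing libraries 1 and 5, it called 0 genes for liver and 0 for lung. Without the block the counts spanned 0 to 965 for liver and 0 to 1504 for lung when 1 library was left out.

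The PDAC libraries differed in the sums of several marker lists. The 13 epithelial genes of the mammary list, most of them shared with pancreatic ducts, summed to 6700 and 277 RPKM in PDAC liver metastases 1 and 5, to 200 RPKM in the PDAC lung metastasis and to 2230 and 17400 RPKM in PDAC primaries 1 and 5. The libraries where Fbln2 was near or listed at 0 were those with the lowest sums, and 13 and 8 of the 13 genes were above 0 in them, Krt14, Krt5 and Cdh1 being listed at 0 in the lung metastasis. The fibroblast list summed to 149 and 80.4 RPKM in liver metastases 1 and 5, 175 RPKM in the lung metastasis and 44.8 and 207 RPKM in primaries 1 and 5, with 10, 14, 6, 9 and 6 of 15 genes above 0. In the primaries, Fn1 had 20.4 and 115 RPKM, Sparc 5.24 and 80.3 RPKM, Col1a1 0.868 and 10.4 RPKM and Dcn 16.5 and 0 RPKM, while Pdgfrb and Fap were listed at 0 in both. Neutrophil genes summed to 8920 and 221000 RPKM in liver metastases 1 and 5, 21400 RPKM in the lung metastasis and 1360 and 707 RPKM in primaries 1 and 5. Macrophage genes summed to 15600 and 17900 RPKM in the liver metastases, 20600 RPKM in the lung metastasis and 3750 and 1360 RPKM in the primaries. Erythroid genes summed to 351000 and 187000 RPKM in the liver metastases, 348000 RPKM in the lung metastasis and 59200 and 260 RPKM in the primaries. The surfactant gene Sftpc was at 34200 RPKM in the lung metastasis and at or under 1.95 RPKM in the other PDAC libraries. Neutrophil, macrophage and erythroid sums above those of both primaries were thus found in the libraries where Fbln2 was near or at 0. The same held in liver metastasis 1, where Fbln2 had 50.7 RPKM. The part of these lists in the Fbln2 values was not tested.

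Genes outside the set with a like pattern were sought over all 9 libraries. The 5 whose log2 values had the highest Pearson correlation with the mean standardised profile of the 8 genes were Tyro3, Mrc2, Fhdc1, Wnt9a and Bdkrb2, at r = 0.9901 to 0.9913 over 9 libraries. Wnt9a, a Wnt ligand gene, was at 0.673 RPKM and listed at 0 in BC lung metastases 4 and 6, against 2.68 and 3.47 RPKM in primaries, and Bdkrb2, a bradykinin receptor gene, at 0.388 RPKM and listed at 0 against 2.99 and 2.18 RPKM. Tyro3, which encodes a receptor tyrosine kinase, had 0.573 and 0.00344 RPKM against 1.99 and 1.93 RPKM. All 5 were at or under 3.47 RPKM in every library and at or under 0.144 RPKM in PDAC. The same correlation was 0.9687 to 0.9888 for 7 of the 8 genes and 0.6721 for Fbln2, each raised by the gene's own part in the mean profile. Of 12824 other tested genes, 56 reached 0.95 and 1475 reached the value of Fbln2. These correlations are a description over 9 libraries in 5 groups that differ in depth and in the number of genes above 0, and the 5 genes were at 0 or near it in library 6, as many genes were.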

How the data were processed

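Libraries were made with SMART-seq v4 and Nextera XT, per the labels' protocols. The genome build is named as mm9 in the notes, per the submitters' processing notes. For aligner, counter and annotation, nothing is given in the sources used here. In all, the authors deposited 1 table of 23799 genes in 9 columns, read as RPKM although its name says CPM: columns summed to 288171 to 992077, and low values (under 20 reads) times exonic length (GENCODE M21, found for 93.0% of genes) were whole multiples of 1 step per library, within 0.02, for 62.6 to 74.3% of values, against 4.3 to 5.1% without length. Reads given in the text come from that step; they were whole in all 9 libraries for Dmp1, Adamts8, Apln and Ephb6 and are approximate for the others. They are not unique molecules.

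The 12832 genes at 1 RPKM or more in at least 2 libraries were analysed as log2(RPKM + 1) in limma 3.58.1 under R 4.3.3 (statmod 1.5.0), with trend and robust moderation, 1 mean per group over all 9 libraries (4 residual degrees of freedom), two-sided tests and Benjamini-Hochberg adjustment. A fold on this scale understates the change of low genes. The code was tested on simulated data. PDAC libraries of 1 number share age and genotype labels. The main fit did not pair them, and only the replicate block, an alternative, took them as pairs, as if from 1 mouse. Deviations from the group mean correlated at -0.165 over 12832 genes between the primary and the liver metastasis numbered 1. Alternatives covered pseudocount, filter, scaling, moderation, pairing, libraries and the size of a drop. The 8 genes and all lists were chosen with earlier results of these data known. Named genes were the 8, the 5 most alike in profile, neighbours in rank, and list genes at 5 RPKM or more in BC primaries (given by examples), plus a few singled out after their values were seen or with lower values. Genome coordinates are those of GRCm38.p6 promoters only and were not joined to the mm9 values. No pairs of BC libraries share a number. A genotype label and a list gene are not reported here.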

Additional observations from a re-analysis of the deposited data

How the results depend on the processing

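The 8 BC differences stayed negative under all 17 or 18 alternatives that gave a value, from -4.22 to -3.47 for Fbln2 and from -4.63 to -0.93 for Bnc1. The condition that chose the genes fixes this sign, except under quantile scaling and the rescaling with haemoglobin removed. Only these could have changed it. Bnc1, Ube2ql1 and Wisp1 did not pass the filter of 5 RPKM in 2 libraries. With a decrease of 2 in place of 1, 3 of the 8 genes had a drop in library 4. With quantile scaling 7 did (Ube2ql1 at -0.94) and 6 in library 6 (Bnc1 at -0.22, Ube2ql1 at -0.87). Genes called between BC groups numbered 73 when only BC libraries were fitted and 0 otherwise. For PDAC liver against primary the count of 1 became 0 with a pseudocount of 0.1, no filter, quantile scaling, haemoglobin removed, the replicate block, PDAC libraries only or without the 3 libraries with the fewest genes, 2 without trend and robust moderation, and 0 to 965 when 1 library was left out (965 without PDAC primary 1, 40 without liver metastasis 1, 1 without the lung metastasis and 0 without any other). The crossed pairing, added after seeing the data, called 46. For PDAC lung against primary the count of 75 became 270 with a pseudocount of 0.1, 251 without a filter, 161 with quantile scaling, 0 with the replicate block, 0 without trend and robust moderation, 1 with PDAC libraries only, and 0 to 1504 when 1 library was left out (1504 without PDAC primary 1, 156 without primary 5, 74 without liver metastasis 1 and 0 without liver metastasis 5 or any BC library). The Fbln2 difference in PDAC lung was -7.86 to -4.02 over 16 alternatives (limma adjusted p 0.0933 to 0.7). In PDAC liver it was -4.47 to 1.10 over 18 (0.331 to 1), positive only without liver metastasis 5. No direction is read from PDAC differences of the other 7 genes, which rest on 0 to 12 reads a library and turned their sign with quantile scaling for Wisp1 (-0.16), Apln (-0.13), Ephb6 (-0.12) and Bnc1 (-0.12) in liver and for Ube2ql1 (0.20) in lung. The cause of these changes was not tested. The block changed no call of the 8 genes. With 2 libraries a group and library 6 listing few genes, values of 0 there limit what can be read.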
